A study of Arabidopsis thaliana with 24 samples.

Results

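DOG1 (AT5G45830) and the genes that stand next to it on chromosome 5 of Arabidopsis thaliana, CIPK19 (AT5G45810), CIPK20 (AT5G45820) and AT5G45840, were followed through poly(A) RNA from leaves of haploid, diploid and double-haploid plants. These 4 of the 27416 genes in the count tables were chosen by their identifiers, and their order follows the gene order of the TAIR10.1 reference table. They were picked with the knowledge that DOG1 and CIPK20 differ strongly between 2n and the other groups, so every value of these genes that involves 2n is given below as a description with no test. Of the 4 genes, 3 had enough counts to be tested, and CIPK19 did not.

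The RNA came from leaves 6, 7 and 8 of 2-week-old soil-grown seedlings. There were 12 libraries in 6 groups of 2: the double-haploid (DH) lines DH6, DH9 and DH14, the group sDH, whose name the labels do not spell out, diploid 2n plants and haploid 1n plants. The labels write the haploid as 1nCol, and the deposited table that sets WT against 1n calls WT Col, the usual short name of the accession Columbia. No accession of the DH lines, transgene or treatment is named, nor from which plants each line was derived. The 2 libraries of a group are called biological replicates, and whether they are separate plants or harvests is not said, so all p-values measure only the spread between these libraries. Library columns carry the numerals II and III in DH6 and sDH, which are kept as names here. The 2n libraries are these WT (Col) columns. They were assigned to 2n by elimination, since the names of all other columns show their group.

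DOG1, DELAY OF GERMINATION 1, is a main determinant of seed dormancy. Its transcript accumulates while seeds mature, and its protein binds the abscisic acid phosphatases AHG1 and AHG3 and keeps seeds from germinating. CIPK19 and CIPK20 belong to the CBL-interacting protein kinases (CIPKs), plant kinases that are switched on when a calcineurin B-like (CBL) calcium sensor binds them. AT5G45840 has no gene symbol in the reference. An antisense transcript is known at DOG1, and without a stated strand setting its reads cannot be told apart from those of DOG1. Likewise, a rule for reads shared by related genes, such as members of the CIPK family, is not given in the sources used here.

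Libraries held 16484799 to 22146896 counts in genes. A count of 1 equals 0.0449 to 0.0632 CPM (counts scaled to a common library size), and 3 counts, the limit that a count of 0 allows, equal 0.135 to 0.189 CPM. The 8 leaf markers, among them the rubisco small subunits, summed to 58120 to 94620 CPM per library. The 13 seed maturation genes (cruciferins, oleosins, albumins and others) summed to 0 to 15 counts per library and none was tested, the 6 root genes to 4 to 106 counts, and the 5 flower genes to 5 to 51 counts. Of the root genes, PYK10 passed as higher against 1n in DH6 (22.6% of all genes did) and in DH14 (12.2%). Of the flower genes, AG passed as lower in DH6 (24.5%), sDH (24.4%) and 2n (19.9%), and SEP3 in DH9 (14.8%). These calls rest on low counts and were not repeated with a library left out. The root genes summed to 4 counts in each 1n library, and to 13 and 60 in DH14 1 and DH14 2. Between the libraries of a group, counts differed by more than read sampling, most in 1n (chi-square per degree of freedom 24.1) and least in DH9 (3.98).

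DOG1 was close to silent in 2n leaves and expressed at a low level in all other groups. DH6 II and DH6 III had 3.01 and 4.03 CPM, and DH9 1 and DH9 2 had 2.41 and 2.86 CPM. DH14 1 and DH14 2 had 3.31 and 4.47 CPM, and sDH II and sDH III had 6.07 and 7.08 CPM. The 2n libraries had 0.246 and 0 CPM, which are 5 counts and 0 counts, and the 1n libraries had 1.94 and 3.22 CPM. No library of another group reached down to the 2n libraries, the lowest of them being 1n 1 with 32 counts. Both sDH libraries lay above all others. The 2n library without a count allows up to 0.161 CPM. In whole leaves, fewer cells that express a gene and less RNA per cell cannot be told apart.

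CIPK20 followed the same outline at 2n, with more counts behind it. DH6 II and DH6 III had 48.5 and 48.8 CPM, DH9 1 and DH9 2 had 20.3 and 24.04 CPM, and DH14 1 and DH14 2 had 54.5 and 47.1 CPM. The sDH libraries had 47.2 and 53.2 CPM, the 2n libraries 2.76 and 1.12 CPM (56 and 21 counts), and the 1n libraries 64.1 and 60.1 CPM. DH9 thus stood between 2n and the rest, with no overlap on either side, while DH6, DH14 and sDH overlapped each other and lay below 1n. CIPK19, its neighbour and relative, had 0 to 2 counts in every library, 7 of them with none. That is at or under the limit that a count of 0 allows, so no level or difference of CIPK19 was detectable at this depth.

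AT5G45840, on the other side of DOG1, did not share the drop in 2n. It had 2.16 and 2.32 CPM in DH6, 3.73 and 2.77 CPM in DH9, 2.57 and 2.89 CPM in DH14 and 1.45 and 1.70 CPM in sDH. The 2n libraries had 2.71 and 2.68 CPM, and the 1n libraries 4.12 and 7.01 CPM. Both 1n libraries were above all others and both sDH libraries below all others, while 2n lay inside the range of DH14 and below both DH9 libraries.

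**Figure D1:**
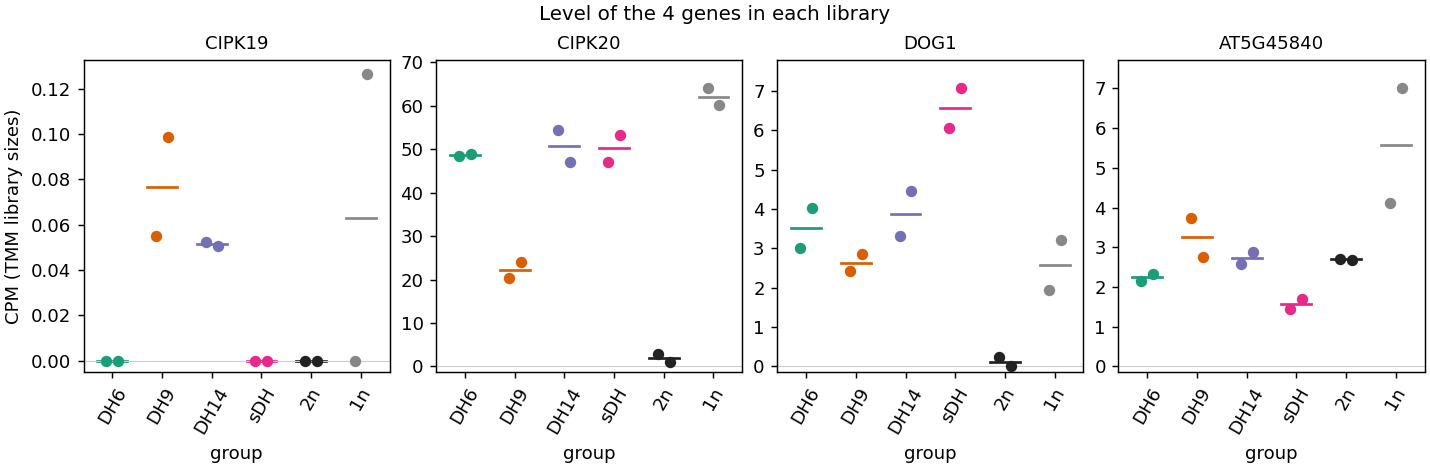
Level of CIPK19, CIPK20, DOG1 and AT5G45840 in CPM (linear axes of different range, TMM library sizes); each point is a library and each bar the mean of the 2 libraries of a group. CIPK20 and DOG1 are near 0 in 2n, CIPK20 is at 20.3 and 24.04 CPM in DH9, DOG1 is highest in sDH, and AT5G45840 is highest in 1n. CIPK19 never exceeds 2 counts.

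Placed in order of their group means (± SD, n = 2 each), DOG1 levels were 6.57 ± 0.719 CPM in sDH, 3.89 ± 0.818 in DH14, 3.52 ± 0.721 in DH6, 2.64 ± 0.318 in DH9, 2.58 ± 0.907 in 1n and 0.123 ± 0.174 in 2n. DH14 and DH6 differed by less than their spread, as did DH9 and 1n, while the DH6 libraries lay above the DH9 libraries by a difference that did not pass the test (log2 change 0.41, adjusted p = 0.486). For CIPK20, the order was 62.1 ± 2.81 CPM in 1n, 50.8 ± 5.22 in DH14, 50.2 ± 4.26 in sDH, 48.7 ± 0.215 in DH6, 22.2 ± 2.65 in DH9 and 1.94 ± 1.16 in 2n. Here DH14, sDH and DH6 differed by less than their spread. AT5G45840 averaged 5.57 ± 2.04 CPM in 1n, 3.25 ± 0.682 in DH9, 2.73 ± 0.225 in DH14, 2.69 ± 0.0244 in 2n, 2.24 ± 0.118 in DH6 and 1.57 ± 0.177 in sDH, where DH9, DH14 and 2n differed by less than their spread.

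The size of the difference at 2n, which chose the genes, is described next. Summed over the 2 libraries, DOG1 had 152 counts in DH6, 102 in DH9, 151 in DH14, 251 in sDH and 83 in 1n, against 5 counts in 2n. Scaled to CPM, that is 27.3 times the 2n level in DH6 (95% interval from the exact binomial of the counts 11.5 to 85.4), 20.7 times in DH9 (8.57 to 65), 30.4 times in DH14 (12.7 to 94.9), 50.8 times in sDH (21.5 to 157.8) and 20.01 times in 1n (8.24 to 63.2). These intervals cover read sampling alone, and they are wide because 5 counts stand below the line. CIPK20, with 77 counts in 2n, had 24.6 times the 2n level in DH6 (19.6 to 31.4), 11.3 times in DH9 (8.92 to 14.4), 25.7 times in DH14 (20.5 to 32.7), 25.2 times in sDH (20.1 to 32.1) and 31.5 times in 1n (25.1 to 40.0).

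On the log2 scale of the edgeR fit, the change of 2n against 1n was -4.26 (SE 0.617) for DOG1, -4.98 (SE 0.255) for CIPK20 and -1.04 (SE 0.275) for AT5G45840. Each 2n library weighed on the DOG1 value: without 2n 2 it was -3.36, and without 2n 1 the remaining library had no DOG1 count and gave no fold. Leaving out any library of these groups kept the CIPK20 value between -5.78 and -4.49. Set against the mean of the other 5 groups, the 2n value of DOG1 stood at -4.75, which placed it at rank 26 from the lowest of 19201 genes, and that of CIPK20 at -4.49 and rank 31. AT5G45840 stood at -0.06 and rank 8330, close to the middle. Other transcripts differed too, with 21% of all genes called higher and 19.9% lower in 2n against 1n. All 8 leaf markers were lower in 2n than in 1n, with a median log2 change of -0.79. Their sum was 60310 and 58120 CPM in 2n against 94620 and 88540 CPM in 1n. The median log2 change of the markers against 1n was -0.555 for sDH and -0.432 for DH6, then -0.405 for DH9 and -0.216 for DH14. Each of these drops was smaller than that of 2n. Leaf markers passed as lower against 1n in DH6 (8 of 8, where 24.5% of all genes did) and DH9 (6, against 14.8%). They also passed in DH14 (3, against 11.8%) and sDH (6, against 24.4%). The count in DH6 was 4 without DH6 III and 5 without 1n 1, and that in DH14 was 0 without DH14 1 and 1 without DH14 2 or 1n 1. The part of these markers in the values of DOG1, CIPK20 and AT5G45840 was not tested.

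Differences among the 5 groups other than 2n did not enter the choice of the genes and could be tested. An F-test of edgeR's quasi-likelihood fit over DH6, DH9, DH14, sDH and 1n gave adjusted p = 0.00111 for CIPK20, 0.0311 for DOG1 and 0.00252 for AT5G45840. All 3 tested genes thus passed, where 56.5% of all tested genes did. The DOG1 call was lost when DH9 1, DH9 2, sDH II or sDH III was left out, with adjusted p of 0.073, 0.0605, 0.0956 and 0.168.

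DOG1 was higher in sDH than in 1n, and in no other line did it pass the test against 1n. Its level of 6.57 CPM in sDH stood against 2.58 CPM in 1n, a log2 change of 1.35 (SE 0.367, adjusted p = 0.0108) or 2.54-fold, in a comparison where 24.1% of genes were called higher. The call was lost without sDH III (adjusted p = 0.0565) and without 1n 1 (0.0529). The log2 changes of DH6 (0.45, 95% interval -0.38 to 1.28), DH9 (0.04, -0.82 to 0.89) and DH14 (0.59, -0.23 to 1.42) against 1n had intervals that held 0.

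CIPK20 was lower in DH9 than in 1n and in no other line past the threshold. Its 22.2 CPM in DH9 against 62.1 CPM in 1n gave a log2 change of -1.49 (SE 0.199, adjusted p = 0.000347), or 2.8-fold lower, where 14.8% of genes were called lower. This call held in all 10 alternatives tried, with each library of the comparison left out among them. In DH6 the log2 change against 1n was -0.35 (-0.77 to 0.07), in DH14 -0.29 (-0.71 to 0.13) and in sDH -0.31 (-0.73 to 0.12).

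AT5G45840 was lower than in 1n in DH6 (log2 change -1.31, SE 0.278, adjusted p = 0.00277), in DH14 (-1.02, SE 0.275, 0.021) and in sDH (-1.82, SE 0.292, 0.000445). In DH9 the change of -0.78 (SE 0.271, adjusted p = 0.0504) lay just outside the threshold. The background of genes called lower was 24.5% in DH6, 11.8% in DH14 and 24.4% in sDH. The 1n mean rests on 4.12 and 7.01 CPM, and 1n 2 weighed on each value: without it the log2 change was -0.88 for DH6, -0.34 for DH9, -0.59 for DH14 and -1.39 for sDH. The DH14 call was lost without 1n 2 (adjusted p = 0.166), without DH14 1 (0.123) and without DH14 2 (0.0777), while the DH6 and sDH calls held with each library left out.

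**Figure D2:**
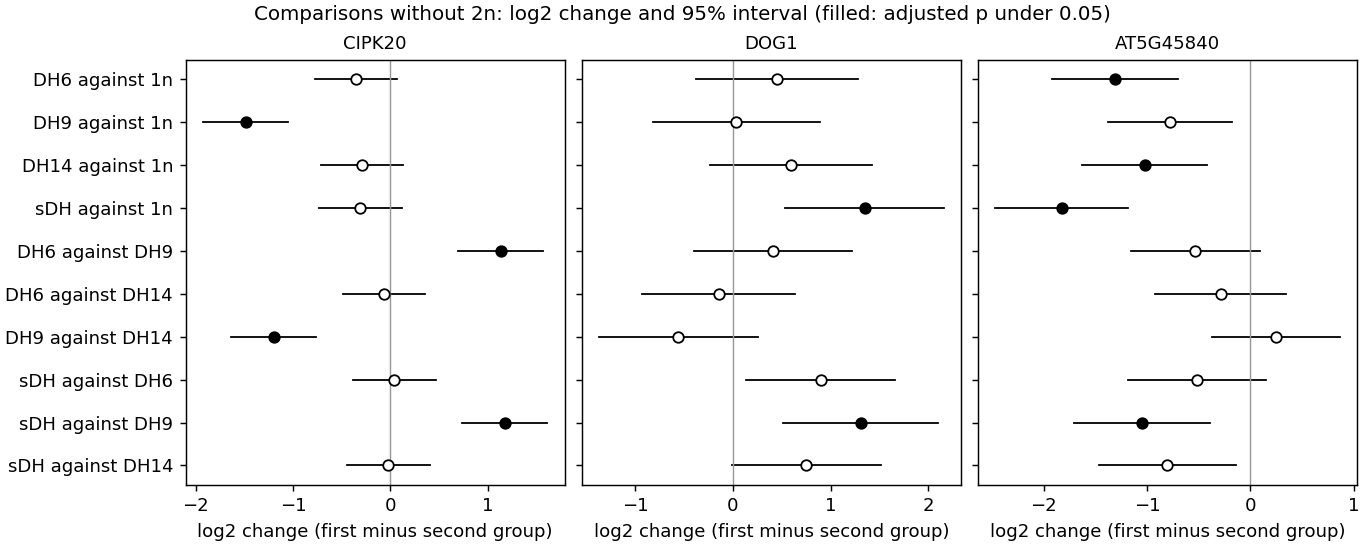
Log2 change and 95% interval of CIPK20, DOG1 and AT5G45840 in the 10 comparisons that do not involve 2n; filled points have an adjusted p under 0.05 by edgeR's quasi-likelihood test. For CIPK20, all comparisons that include DH9 are filled and no others. For DOG1, sDH against 1n and sDH against DH9 are filled, and for AT5G45840 all filled points lie left of 0.

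The lines also differed among themselves, and the differences in CIPK20 set DH9 apart. CIPK20 was higher in DH6 than in DH9 (log2 change 1.13, SE 0.198, adjusted p = 0.00411, background 16.4% called in either direction). It was also higher in sDH than in DH9 (1.18, SE 0.198, 0.00168, background 26.5%). DH9 was lower than DH14 (-1.20, SE 0.198, 0.0091), in a comparison where 3.1% of genes were called. Against the other lines, DH6, DH14 and sDH had CIPK20 changes of -0.06 (DH6 against DH14, -0.48 to 0.36), 0.04 (sDH against DH6, -0.38 to 0.47) and -0.02 (sDH against DH14, -0.44 to 0.40). The call of sDH against DH9 held with each library left out. That of DH6 against DH9 was lost without DH9 1 (adjusted p = 0.0615), and that of DH9 against DH14 was lost without DH9 1 (0.126), DH9 2 (0.077), DH14 1 (0.0822) or DH14 2 (0.0559).

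DOG1 was higher in sDH than in DH9 (log2 change 1.31, SE 0.36, adjusted p = 0.0207). This call was lost without DH9 1 (adjusted p = 0.133), DH9 2 (0.0794), sDH II (0.062) or sDH III (0.102). The DOG1 changes of sDH against DH6 (0.90, 0.13 to 1.66, adjusted p = 0.145) and against DH14 (0.75, -0.01 to 1.52, 0.13) did not pass. AT5G45840 was lower in sDH than in DH9 (-1.05, SE 0.299, adjusted p = 0.0247), a call lost without DH9 1 (0.162), sDH II (0.142) or sDH III (0.0682). The other 5 pairs of lines did not pass for AT5G45840, nor did the other 5 for DOG1. The sDH group thus had the highest mean of DOG1 and the lowest mean of the adjacent AT5G45840. In the 3 pairs in which no member passed, 26.8% (DH6 against DH14), 7.33% (sDH against DH6) and 28% (sDH against DH14) of all genes were called.

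Genes further along the chromosome did not share the low values of DOG1 and CIPK20 in 2n. Of the 10 genes on each side of the 4, 14 of 20 had enough counts to be tested, and their log2 changes in 2n against 1n ran from -0.96 to 2.45, with a median of 0.23. Passing in 2n were 5 neighbours, all higher, and none lower, where 21% of all genes were called higher and 19.9% lower. Neighbours called higher against 1n numbered 5 in DH6 (background 22.6%), 4 in DH9 (15.5%), 3 in DH14 (12.2%) and 8 in sDH (24.1%). The share of all genes called lower was 24.5% for DH6 and 14.8% for DH9, then 11.8% for DH14 and 24.4% for sDH. No neighbour was called lower by edgeR in any of the 5 comparisons. All 5 use the same 1n libraries, so they are not separate observations. At an unadjusted p under 0.05, 1 neighbour was lower in DH6 and 1 in 2n and none in the others, and DESeq2 called none lower. The count of 8 in sDH was 4 without sDH II, and the count of 5 in 2n was 3 without 2n 1 or without 1n 1. Without a 1n library, 1 neighbour was called lower in DH6 (without either), in DH14 and sDH (without 1n 1) and in 2n (without 1n 2).

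The gene on the far side of CIPK19, MEE62, had 38.1 ± 8.73 CPM in 2n and 36.2 ± 6.85 CPM in 1n (SD, n = 2 each), which gave a log2 change of 0.07 (SE 0.152, adjusted p = 0.728). On the far side of AT5G45840, AT5G45850 had 0.986 and 0.91 CPM in 2n and 0.848 and 0.379 CPM in 1n (0.62, SE 0.475, adjusted p = 0.328). AT5G45850 was higher than in 1n in DH6 (1.97, adjusted p = 0.00345) and in sDH (1.36, 0.0277), the second call lost without sDH II or 1n 2. AT5G45730, which has no symbol, was higher in all groups than in 1n, in each comparison with a call that was lost without at least 2 libraries. It had 0.641 and 0.428 CPM in 2n, against 0.0606 and 0.126 CPM in 1n, which are 1 and 2 counts, so that its log2 change of 2.45 (adjusted p = 0.0267) rests on 3 counts in 1n and was lost without 2n 1, 1n 1 or 1n 2. AT5G45775 had 162.8 and 151.9 CPM in 2n, against 84.0 and 78.1 CPM in 1n (0.96, adjusted p = 8.23e-06). AT5G45780 had 7.79 and 9.26 CPM in 2n, against 3.88 and 3.54 CPM in 1n (1.20, adjusted p = 0.000251). CHLI2, a subunit of the magnesium chelatase of chlorophyll synthesis, had 153.8 and 141.7 CPM in 2n, against 110.2 and 99.8 CPM in 1n (0.49, adjusted p = 0.000826). RABA1c, a RAB GTPase, had 63.1 and 64.4 CPM in 2n, against 33.5 and 55.0 CPM in 1n (0.53, adjusted p = 0.0323), a call lost without 2n 1, 2n 2 or 1n 1. Of the 6 neighbours with too few counts, PYL12, SAG12 and AT5G45910 had none in any library.

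**Figure D3:**
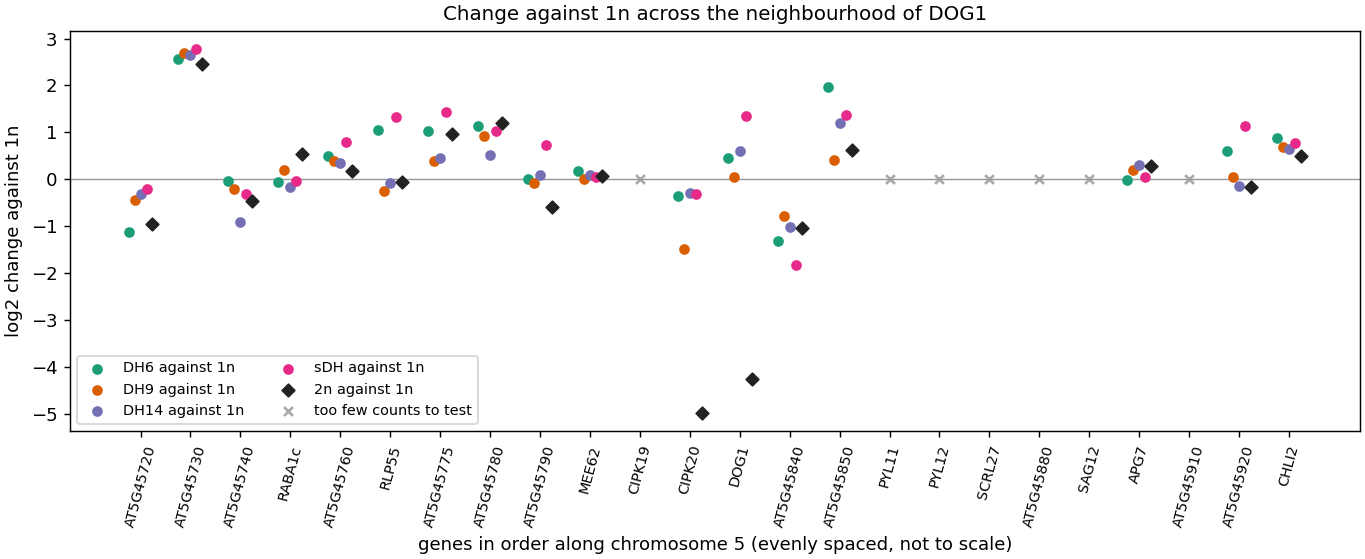
Log2 change against 1n of the 4 genes and the 10 genes on each side, in gene order along chromosome 5, evenly spaced; circles are DH6, DH9, DH14 and sDH, diamonds are 2n, and crosses mark genes with too few counts. The 2n diamonds of CIPK20 and DOG1 lie at -4.98 and -4.26, while those of the tested neighbours lie between -0.96 and 2.45.

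Among the other CIPK genes, more were lower than higher against 1n in each group. CIPK20 was chosen for its difference at 2n, so its place below them in 2n is a description only. Of 24 further CIPK genes, 21 were tested. Against 1n, 14 were lower and none higher in DH6 (median log2 change -1.02, against -0.01 over all genes, background 24.5% lower). In DH9, 9 were lower and 1 higher (median -0.66 against 0.00 over all genes, 14.8%), and in DH14 6 were lower and 1 higher (-0.41 against -0.01, 11.8%). In sDH, 11 were lower and none higher (-0.83 against 0.01, 24.4%), and in 2n 14 were lower and 1 higher (-0.96 against 0.00, 19.9%). The share of all genes called higher was 22.6% in DH6, 15.5% in DH9, 12.2% in DH14, 24.1% in sDH and 21% in 2n. Where edgeR called none higher, 1 in DH6 and 0 in sDH had an unadjusted p under 0.05, and DESeq2 called none. In DH6, 1 was higher without DH6 II or without 1n 2. Leaving out DH6 III took the count of lower genes in DH6 to 9, leaving out DH14 1 or DH14 2 took that in DH14 to 3, and leaving out DH9 2 took that in DH9 to 6.

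The smallest adjusted p among these kinases belonged to CIPK6 (SIP3 in the reference), with 25.9 ± 3.10 CPM in 2n and 155.5 ± 17.4 CPM in 1n (SD, n = 2 each), a log2 change of -2.59 (SE 0.12, adjusted p = 2.2e-07). CIPK1, which binds the sensors CBL1 and CBL9, had 19.7 ± 0.75 CPM in 2n and 110.9 ± 34.2 CPM in 1n (-2.49, SE 0.176, 2.26e-06). CIPK9, a kinase linked to potassium nutrition, had 48.9 ± 1.08 CPM in sDH and 115.1 ± 6.83 CPM in 1n (-1.24, SE 0.124, 2.07e-05). CIPK7 had 18.9 ± 3.21 CPM in 2n and 63.7 ± 14.8 CPM in 1n (-1.75, SE 0.175, 2.43e-05). These 4 calls held with each library left out. The genes called higher, named here after their values were seen, were CIPK21 in 2n (1.45, adjusted p = 0.0051) and in DH9 (1.06, 0.0311) and CIPK13 in DH14 (0.91, 0.0395). The call of CIPK21 in DH9 was lost without DH9 1 or DH9 2, and that of CIPK13 without any of the 4 libraries compared.

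**Figure D4:**
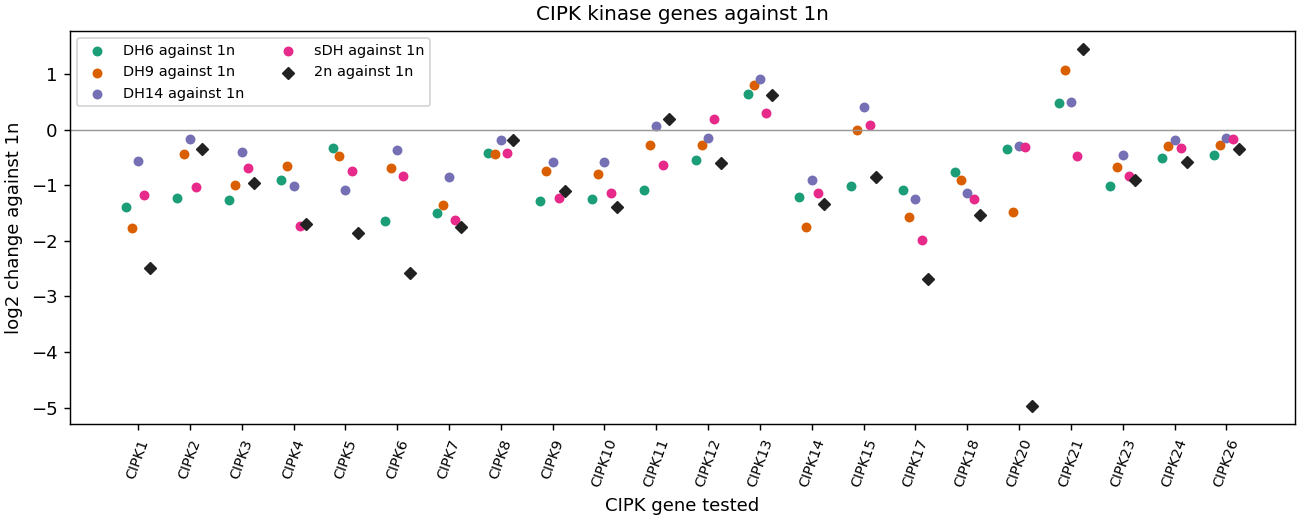
Log2 change against 1n of CIPK20 and the 21 other tested CIPK genes; circles are DH6, DH9, DH14 and sDH, diamonds are 2n. Most points lie below 0, and the lowest is CIPK20 in 2n at -4.98, a value that entered the choice of this gene. CIPK21 and CIPK13 have points above 0 that passed the test.

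The CBL calcium sensors are the partners of these kinases, and 7 of 10 genes were tested. Against 1n, 1 was higher in DH6 (22.6% of all genes), none passed in DH9 or in DH14 (15.5% and 12.2% higher, 14.8% and 11.8% lower), 1 was lower in sDH (24.4%), and 1 was higher and 1 lower in 2n (21% and 19.9%). With 7 genes, these counts say little about the sensors as a group. Without 1n 2, 2 were higher in DH6, 1 in DH9 and 2 in 2n, and without 1n 1, 1 was lower in DH14 and 2 in sDH. For DH9 and DH14, 1 and 0 of the 7 had an unadjusted p under 0.05, DESeq2 called none, and the median log2 changes were 0.09 and -0.10. CBL1 was higher in 2n, with 14.3 and 16.6 CPM against 8.54 and 9.60 CPM in 1n (log2 change 0.77, SE 0.149, adjusted p = 0.00192). CBL9 was higher in DH6, with 13.3 and 13.6 CPM against 9.15 and 9.10 CPM in 1n (0.56, SE 0.148, 0.00959). CBL6 was lower in sDH, with 6 and 3 counts against 16 and 16 counts in 1n (-2.06, SE 0.539, 0.00863), a call lost without sDH III. CBL10 was lower in 2n, with 19.4 and 20.6 CPM against 25.3 and 28.1 CPM in 1n (-0.42, SE 0.126, 0.0212), a call lost without 2n 1, 2n 2 or 1n 2.

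Genes known as partners or regulators of DOG1 in seeds were tested in the same way. Of 26 genes, 19 had enough counts. Untested for low counts were AHG1, a phosphatase that DOG1 binds, the seed maturation regulators ABI3 and LEC2, the factor bZIP67, and RDO5, ERF12 and MFT. Against 1n, 6 were higher and 2 lower in DH6, 6 and 1 in DH9, 2 and 1 in DH14, 5 and 1 in sDH, and 5 and 1 in 2n. Over all genes, 22.6% were higher and 24.5% lower in DH6, 15.5% and 14.8% in DH9, 12.2% and 11.8% in DH14, 24.1% and 24.4% in sDH, and 21% and 19.9% in 2n, so the counts of higher genes in DH14, sDH and 2n lay near the share over all genes. The median log2 change of the 19 was 0.11 in DH6, 0.08 in DH9, 0.20 in DH14, 0.22 in sDH and 0.23 in 2n, where that of all genes lay between -0.01 and 0.01. The 2 higher in DH14 were 0 without DH14 1, DH14 2 or 1n 1, and 1 without 1n 2, and the 2 lower in DH6 were 0 without DH6 III and 1 without DH6 II, 1n 1 or 1n 2. Without 1n 1, 2 were lower in DH9 and 2 in DH14 and none in sDH, and none was lower in sDH without sDH III. The 6 higher in DH9 were 3 without DH9 2. Without 2n 2, 3 were higher and 3 lower in 2n. AHG3 (PP2CA), the other phosphatase bound by DOG1 and named here for that role after its values were seen, had 26.2 and 59.0 CPM in the 1n libraries, a range that holds all other libraries but DH6, which had 25.2 and 19.6 CPM. It was called lower in DH6 (log2 change -0.92, adjusted p = 0.0232 by edgeR), a call lost without DH6 III or 1n 2. ABI5 and FUS3, also named after their values were seen, each had 10 counts in 1n. By edgeR, ABI5 was higher in DH6 (2.27, adjusted p = 0.00492), DH9 (2.64, 0.00342) and 2n (2.08, 0.01025). The 2n call was lost without 2n 1 or 1n 1. FUS3 was higher in DH9 (1.93, adjusted p = 0.035), a call lost without any of the 4 libraries compared.

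HSI2, also known as VAL1, a repressor that acts on DOG1, was lower in 2n, with 16.3 and 17.4 CPM against 29.7 and 26.0 CPM in 1n (log2 change -0.73, SE 0.11, adjusted p = 0.000415). Against 1n it did not pass in the other groups. SUVH4, a histone H3 lysine methyltransferase that lowers DOG1 expression in seeds, was higher in DH6, with 11.9 and 12.99 CPM against 7.63 and 6.44 CPM in 1n (0.82, SE 0.145, 0.000931). It was also higher in sDH (0.78, adjusted p = 0.00125), in 2n (0.77, 0.00175) and in DH9 (0.46, 0.0369), the last call lost without DH9 2 or 1n 2. TFIIS, a transcription elongation factor needed for full seed dormancy, was higher in sDH, with 25.9 and 24.4 CPM against 16.9 and 15.6 CPM in 1n (0.63, SE 0.103, 0.000519). It was also higher in DH6 (0.52, adjusted p = 0.0019) and in 2n (0.33, 0.0249), the last call lost without 2n 1, 2n 2 or 1n 2. Save for those of SUVH4 in DH9 and TFIIS in 2n, the calls of these 3 genes given here held with each library left out. SNL1, a SIN3-like co-repressor that promotes dormancy, had 0.878 and 0.444 CPM in DH9, 0.998 and 0.355 CPM in DH14, and 38.8 and 40.9 CPM in 1n (-5.92, adjusted p = 5.3e-06 in DH9, and -5.88, 1.79e-05 in DH14). DOG1 had 2.41 and 2.86 CPM in DH9 and 3.31 and 4.47 CPM in DH14, against 1.94 and 3.22 CPM in 1n. A link between SNL1 and DOG1 was not tested.

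Across the 12 libraries, the tested gene with the profile nearest to that of DOG1 was CIPK20. Nearness was measured as the root mean square difference of log2 CPM (prior count 2) after each gene's mean was subtracted, and it was 0.61 for this pair. AT5G45840 was at 1.87 from DOG1 and 1.85 from CIPK20. Because DOG1 and CIPK20 were chosen for low 2n values, nearness to them mostly reflects a low value in 2n, and it is a description. After CIPK20, the genes nearest to DOG1 were BBX28 (0.68), a B-box protein, PAP8 (0.72), a purple acid phosphatase, AT5G06980 (0.75), listed as LNK4, and BETA-OHASE 2 (0.83), a beta-carotene hydroxylase. With a prior count of 0.5, 4 of these 5 stayed.

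Nearest to CIPK20 was PRR9 (0.46), a pseudo-response regulator of the circadian clock, followed by AT1G13650 (0.50), STH (0.58), a B-box protein, AT3G21670 (0.58), the NRT1/PTR family member NPF6.4, and BBX28 (0.60). All 5 stayed with a prior count of 0.5. PRR9 had 18.5 and 15.7 CPM in DH6, 5.16 and 7.51 CPM in DH9, 26.8 and 27.4 CPM in DH14, 25.9 and 29.2 CPM in sDH, 0.887 and 0.749 CPM in 2n and 41.9 and 36.7 CPM in 1n. Its order of groups, with 1n highest, DH9 second lowest and 2n lowest, is that of CIPK20 apart from sDH and DH14, which are close in both. AT1G13650 had 52.7 and 71.3 CPM in DH9, 15.1 and 11.6 CPM in 2n and 232.2 and 324.8 CPM in 1n, and thus also placed DH9 between 2n and the rest.

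The clock genes CCA1 and LHY, which peak in the morning, were at 1.04 and 1.02 CPM and at 0.394 and 0.428 CPM in 2n, against 178.1 and 71.2 CPM and 176.1 and 38.9 CPM in 1n. In DH9 they were at 22.3 and 23.2 CPM and at 14.5 and 17.1 CPM, and in DH6 at 18.1 and 15.4 CPM and at 5.89 and 3.65 CPM. In DH14 they were at 88.2 and 99.96 CPM and at 61.1 and 65.25 CPM. The sDH libraries had 88.5 and 57.6 CPM of CCA1 and 39.1 and 24.35 CPM of LHY. The DH14 and sDH libraries thus had more CCA1, LHY and CIPK20 than both DH9 libraries. Both DH6 libraries had less CCA1 and LHY than both DH9 libraries, and more CIPK20. The hour of harvest is not given in the sources used here, and its part in the CIPK20 and DOG1 values was not tested.

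**Figure D5:**
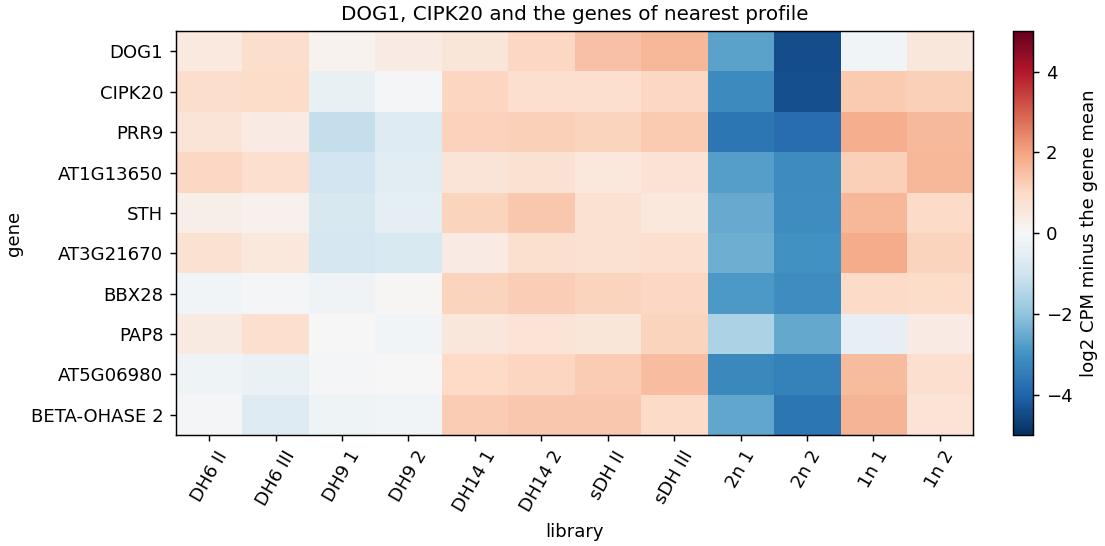
Log2 CPM (prior count 2) minus the mean of each gene, for DOG1, CIPK20 and the genes of nearest profile, in each of the 12 libraries; red is above and blue below the gene's mean. All genes are lowest in the 2n libraries. Both DH9 libraries are below the mean for CIPK20, PRR9, AT1G13650, STH and AT3G21670, and slightly below it for AT5G06980 and BETA-OHASE 2. They are above it for DOG1, and DOG1 is highest in sDH.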

How the data were processed

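RNA sequencing libraries (12) of the series were used, and 12 DNA methylation samples and the tables of transposable elements were not analysed here. The deposited tables give raw counts per gene, which the authors did not normalise. The submitters' processing notes name HISAT2, Subread, DESeq2 and TAIR10, with no versions; annotation and strand setting are not stated there. The 5 gene tables were joined on their identical 1n columns, with 1 repeated column left out. Of 27416 identifiers, 26719 are in the TAIR10.1 reference table, which gave names and gene order only.

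Counts were filtered with edgeR 4.0.16 (R 4.3.3, limma 3.58.1; filterByExpr, minimum count 10, minimum total 15, 19201 genes left) and fitted with TMM library sizes and a mean per group over all 12 libraries. Quasi-likelihood tests were adjusted by Benjamini-Hochberg over all tested genes (threshold 0.05), and in comparisons without 2n the words higher and lower refer to that threshold. An SE is the log2 change over the root of its F. Scripts were tested on simulated data.

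The 4 genes and all gene lists were chosen with earlier results of these data known. Named by rule were the 4 genes, up to 4 passing genes of each list by smallest adjusted p, up to 6 neighbours passing in 2n against 1n by size of change, and the 5 nearest profiles of DOG1 and of CIPK20. Outside this rule, MEE62 and AT5G45850 were named because they adjoin the 4 genes, and some neighbours for having no counts. The clock genes CCA1 and LHY were picked by hand. AHG3, ABI5, FUS3, CIPK13 and CIPK21 were named after their values were seen. A list of DOG1-like genes and a list of a related chromosome 4 block were not used, since 4 of their identifiers carry no such name in the reference. Alternatives were DESeq2 1.42.0, its size factors, no filter, only the 4 libraries compared, each library left out, a replicate block, plain library totals, a prior count of 0.5 and a threshold of 0.01. The crossed block and the list counts with a library left out were chosen after seeing the data.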

Additional observations from a re-analysis of the deposited data

Results flagged for a closer look

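The pairs of lines differed in their change against 1n for 3 of the genes, each by a test of the difference itself. CIPK20 differed by 1.13 (log2) in DH6 against DH9, by 1.18 in sDH against DH9 and by -1.20 in DH9 against DH14. DOG1 differed by 1.31 in sDH against DH9. AT5G45840 differed by -1.05 in sDH against DH9. Among these, the CIPK20 difference of sDH against DH9 kept its call with each library left out, and the other 4 lost it without at least 1 library, as given above.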

How the results depend on the processing

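Of 748 recomputed values, 605 stayed the same by a rule for each kind of value. Changes without 2n had to keep direction and side of the threshold, F-tests their side of it, and counts to stay within 1.5 times. Changes with 2n and levels had to stay within the spread between libraries. A small change with 2n could thus switch sign, as AT5G45840 did in DH14 against 2n (-0.085 to 0.103). Of the rest, 106 moved, 23 lost a call, 6 gained one and 8 reversed, all 8 with a library left out. AT5G45840 in DH9 against 1n passed with DESeq2 size factors (-0.793) and with no filter (-0.775). With only the 4 libraries compared, CIPK20 in DH6 against 1n (-0.331) and DOG1 in sDH against DH6 (0.898) and sDH against DH14 (0.745) passed, and AT5G45840 in DH14 against 1n (-1.013) did not. That fit called 3028 genes (against 5819) in DH9, 1628 (against 4603) in DH14 and 4399 (against 7852) in 2n, each against 1n, as well as 1953 (against 596) in DH9 against DH14 and 2177 (against 1408) in sDH against DH6. DESeq2 called none of the DOG1 partners higher in DH14 (against 2) and 3 in 2n (against 5). The cause was not tested.

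With each library left out, where a group's lone library was assumed to vary like the other groups, DOG1 ranged from -0.281 to 0.448 in DH9, 1.027 to 1.757 in sDH and -8.621 to -3.355 in 2n (the lowest rests on a library with no count and is no bound), each against 1n. It ranged from -0.368 to 0.094 in DH6 against DH14 and from 1.194 to 1.441 in sDH against DH9, and its adjusted p over 5 groups from 0.01081 to 0.1675. AT5G45840 ranged from -1.11 to -0.345 in DH9 and -1.354 to -0.589 in DH14 against 1n, and from -1.25 to -0.819 in sDH against DH9. CIPK20 ranged from 1.017 to 1.262 in DH6 against DH9, -1.323 to -1.079 in DH9 against DH14, -0.156 to 0.046 in DH6 against DH14, -0.118 to 0.09 in sDH against DH14 and -0.045 to 0.128 in sDH against DH6.

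DH9, DH14 and 1n share replicate numbers. Same-numbered libraries deviated with correlations of -0.14 (DH9 and 1n), 0.128 (DH14 and 1n) and -0.0328 (DH9 and DH14). Each rests on a lone difference between the libraries of a group, so these values cannot show whether a batch or harvest was shared. With a replicate block, AT5G45840 in DH14 against 1n was -1.013 (adjusted p = 0.0942), and 3786 genes were called in DH9, 2311 in DH14 and 66 in DH9 against DH14. With the 1n numbers crossed, 3380 were called in DH9. DOG1, with at most 130 counts in a library, limits what these comparisons can detect.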
